A study of Mus musculus with 10 samples.

Results

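The Notch receptors *Notch1*, *Notch2*, *Notch3* and *Notch4*, the ligands *Jag1*, *Jag2* and *Dll4* and the target genes *Hes1*, *Hey1* and *Heyl* were followed in hepatic stellate cells (HSCs) sorted from mouse liver. They were found by gene symbol, and all 10 were present among the 25233 entries with a symbol in a deposited table of 62322 entries. RNA sequencing compared 5 preparations of hypertrophied HSCs (hypHSCs) with 5 of quiescent HSCs (qHSCs), each sequenced as 1 library from C57BL/6J mice. The hypHSCs came from mice on CDAHFD, a choline-deficient, amino acid-defined diet rich in fat, and were sorted on green fluorescence. Feeding lasted 13 weeks for hypHSC 1 and 2, whose mice were 19 weeks old, and 12 weeks for hypHSC 3, 4 and 5, whose mice were 18 weeks old. Livers of mice on standard diet gave the qHSCs, which were sorted on blue fluorescence. These mice were 36 weeks old for qHSC 1, 2 and 5 and 34 weeks old for qHSC 3 and 4. Both kinds of liver were digested with enzymes and passed over a density gradient before sorting, with a stronger digestion for CDAHFD livers. Antibiotics were added to the buffers, except the perfusion buffer, for CDAHFD livers. Diet, age, digestion, antibiotics and gate therefore differed together and cannot be told apart. The preparations were picked for RNA quality and the mouse behind each library is not named, so that n counts preparations and p-values measure the spread between them.

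Notch signaling passes between touching cells. A ligand of the Jagged or Delta family on one cell binds a Notch receptor on its neighbor, the receptor is cut by an ADAM protease and then by the gamma-secretase complex, and its freed intracellular domain enters the nucleus, where it joins the DNA-binding protein RBPJ and a Mastermind coactivator and switches on repressors of the HES and HEY families. In the liver the pathway is best known for the formation of bile ducts, which fails in Alagille syndrome when *JAG1* or *NOTCH2* is mutated, and it also acts in sinusoidal endothelium and in stellate cells.

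Values are normalized counts, that is, reads per gene divided by 1 scaling factor per library. Fold changes are differences of mean log2(normalized count + 1), hypHSCs over qHSCs. The added count shrinks the change of low genes, whereas a library at or near 0 can enlarge it beyond the ratio of the means. The fold changes were tested with limma across the 14630 genes that reached 10 normalized counts in 5 or more libraries. A gene was called differentially expressed (DEG) where the log2 fold change was 1 or more in size and the adjusted p did not exceed 0.05. Depth, counted as reads on named genes, was between 30534719 and 43283589 for hypHSCs and between 35640104 and 47317028 for qHSCs, and the floor of detection was set at 3 reads, or 2.25 to 4.54 normalized counts. Since the cDNA was amplified, reads are not independent molecules, and this floor reflects counting error alone. Mitochondrial transcripts held 2.21% to 12.8% of the reads of hypHSCs, highest in hypHSC 1, and 1.25% to 1.61% of those of qHSCs. hypHSC 5 had the fewest genes with a read, 14028, against up to 16634 in the other hypHSC libraries.

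Markers of several cell types differed between the groups together with the Notch genes. Their counts stand beside 17.8% higher and 21.7% lower DEGs among all genes tested. All 11 markers of quiescent HSCs were lower DEGs, with sums of 8105 to 21944 normalized counts in hypHSCs and 813006 to 1474740 in qHSCs. All 10 macrophage markers were higher DEGs, with sums of 1001460 to 1420140 in hypHSCs and 5668 to 101172 in qHSCs, where qHSC 4 and qHSC 1 (45311) were highest. Of the pan-endothelial markers 7 of 11 were tested, and *Esam*, *Egfl7*, *Tek* and *Tie1* were lower DEGs while *Vwf* was a higher DEG. Their sum was 222 to 446 in hypHSCs and 2114 to 3606 in qHSCs, and the defining markers *Pecam1* (35.1 against 60.7) and *Cdh5* (21.3 against 43.0) were low in both groups and were not DEGs. For sinusoidal endothelial cells, 9 of 11 markers were tested, 4 were higher DEGs and 3 lower, and the sum was 8809 to 13217 in hypHSCs and 3634 to 5992 in qHSCs. Of the smooth muscle markers 6 of 9 were tested and 4 were lower DEGs, with sums of 1019 to 3357 in hypHSCs and 5997 to 8693 in qHSCs. Portal fibroblast markers gave 4 higher DEGs of 5 tested, Kupffer cell markers 3 higher and 1 lower of 7, hepatocyte markers none of 8, cholangiocyte markers 4 higher of 4, T and NK cell markers none of 2, B cell markers 1 higher of 2 and neutrophil markers 4 higher of 4. Sums of cholangiocyte markers were 530 to 3029 in hypHSCs and 6.29 to 58.8 in qHSCs. Those of neutrophil markers were 1861 to 8040 and 5.25 to 384. With such low qHSC sums, both sets may have passed the filter mainly through hypHSCs, so that their counts are a description. The part of all marker lists in the results below was not tested. In bulk libraries fewer cells of a type and less RNA per cell cannot be told apart.

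Among the Notch genes, *Notch1*, *Jag1*, *Dll4* and *Heyl* were lower DEGs in hypHSCs and *Notch2* was a higher DEG. Of the 10 genes, 9 passed the filter on low values and *Jag2* did not. These 5 DEGs of 9 tested stand beside 39.5% of all genes tested, 17.8% as higher and 21.7% as lower DEGs, and the adjusted p alone was passed by the same 5 genes and by 48% of all genes. *Dll4* passed the filter only through qHSCs, where it was high, and so had to differ, so that these counts are a description. In 4 of the 9 the libraries of the groups did not overlap, again beside 39.5% of all genes tested. The median log2 fold change of the 9 was -1.47, against -0.20 over all genes tested, and 8 of 9 were lower in the mean. Scaling the libraries to the same total changed the split from 1 higher and 4 lower to 0 higher and 6 lower, and scaling on *Hprt*, *Pgk1* and *Actb* to 0 higher and 8 lower. These scalings moved the median of all genes by -0.35 and -0.93.

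**Figure D1:**
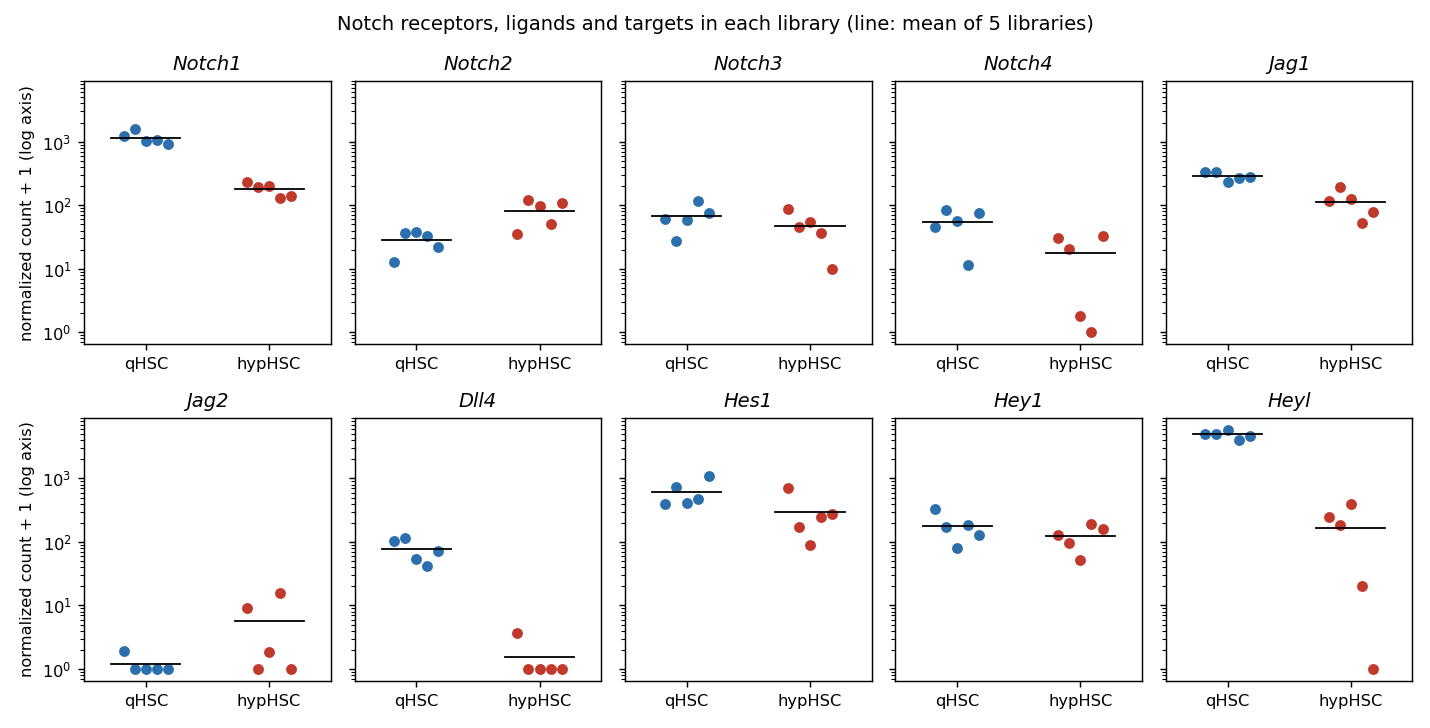
Normalized count + 1 (log axis) of each Notch gene in the 5 qHSC libraries (blue) and the 5 hypHSC libraries (red), drawn from library 1 on the left to 5 on the right, with a line at the mean. The groups were apart for *Notch1*, *Jag1*, *Dll4* and *Heyl*, and *Heyl* ran from 0 to 388 in hypHSCs against 4079 to 5851 in qHSCs.

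*Notch1* (chr2:26347194-26406675, deposited coordinates on GRCm39), the receptor with the broadest known roles, was the receptor that fell. hypHSC 1 to 5 held 230.4, 193, 197, 128 and 138 normalized counts, and qHSC 1 to 5 held 1216, 1560.1, 1009, 1047 and 910.4. Every hypHSC library lay far below the lowest qHSC library. The mean was 177 ± 43.2 (SD, n = 5) against 1148 ± 255 (SD, n = 5), 6.48-fold lower, with a log2 fold change of -2.70 ± 0.24 (SE, 95% interval -3.22 to -2.17, limma adjusted p = 6.00e-06). The exact two-sided permutation p was 0.00794, the smallest that the 252 arrangements of 5 libraries against 5 can give. *Notch1* stayed a lower DEG under all 24 alternatives, between -3.63 and -2.58. In the GENCODE annotation 14.0% of its exon bases overlap *0610009E02Rik*, a noncoding gene on the other strand, and the libraries keep no strand, so that reads there cannot be told apart. That gene was itself a lower DEG, at 65.9 ± 10.1 normalized counts against 202 ± 17.2 (SD, n = 5 each).

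*Notch2* (chr3:97920842-98057683), the receptor mutated in part of the families with Alagille syndrome, was the higher DEG among the Notch genes. Its values in hypHSC 1 to 5 were 33.7, 118, 97.3, 50.4 and 106 normalized counts, against 11.8, 35.8, 37, 31.7 and 20.98 in qHSC 1 to 5. 4 of the 5 hypHSC libraries lay above all qHSC libraries, and hypHSC 1 lay inside their range. The mean rose from 27.4 ± 10.8 to 81.0 ± 36.9 (SD, n = 5 each), a log2 fold change of 1.49 ± 0.51 (SE, 95% interval 0.38 to 2.60, limma adjusted p = 0.0303), with an exact permutation p of 0.0238. This call was near the threshold. It was lost without hypHSC 2 (1.32, adjusted p = 0.0695), hypHSC 3 (1.39, adjusted p = 0.0622), qHSC 1 (1.23, adjusted p = 0.0747) or qHSC 5 (1.42, adjusted p = 0.0638), and with libraries scaled to the same total (1.14, adjusted p = 0.0846) or on *Hprt*, *Pgk1* and *Actb* (0.58, adjusted p = 0.383), in limma fits.

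*Notch3* (chr17:32339794-32385864), the receptor known from mural cells of vessels, was low in both groups and did not pass the test. It ranged from 9.07 in hypHSC 5 to 86.2 in hypHSC 1 and from 26.4 in qHSC 2 to 116 in qHSC 4, so that the groups overlapped. The log2 fold change was -0.69 ± 0.62 (SE, limma adjusted p = 0.378), and its 95% interval of -2.05 to 0.66 leaves room for a change in either direction.

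*Notch4*, known from endothelium, was also low and did not pass the test. hypHSC 1 to 5 held 29.65, 19.7, 0.83, 0 and 31.8 normalized counts, and qHSC 1 to 5 held 44.35, 82.65, 55.9, 10.3 and 75.7. hypHSC 3 and 4 were at or under the floor of 3 reads, and qHSC 4 lay below 3 of the hypHSC libraries. The log2 fold change was -2.45 ± 1.09 (SE, 95% interval -4.84 to -0.06, limma adjusted p = 0.0838), with an exact permutation p of 0.0873. In DESeq2 it was -1.73 and in edgeR -1.67. *Notch4* became a lower DEG without hypHSC 5 (-2.95, adjusted p = 0.0413), with hypHSCs of 12 weeks only (-3.53, adjusted p = 0.0363) and under both scalings named above, in limma fits. The deposited entry spans chr17:34445200-34807517, a length of 362318 bases against 24258 in GENCODE, and holds 11 other protein-coding genes, among them the MHC class II genes *H2-Ab1*, *H2-Aa* and *H2-Eb1*. Its counts are therefore uncertain as a measure of *Notch4*.

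**Figure D2:**
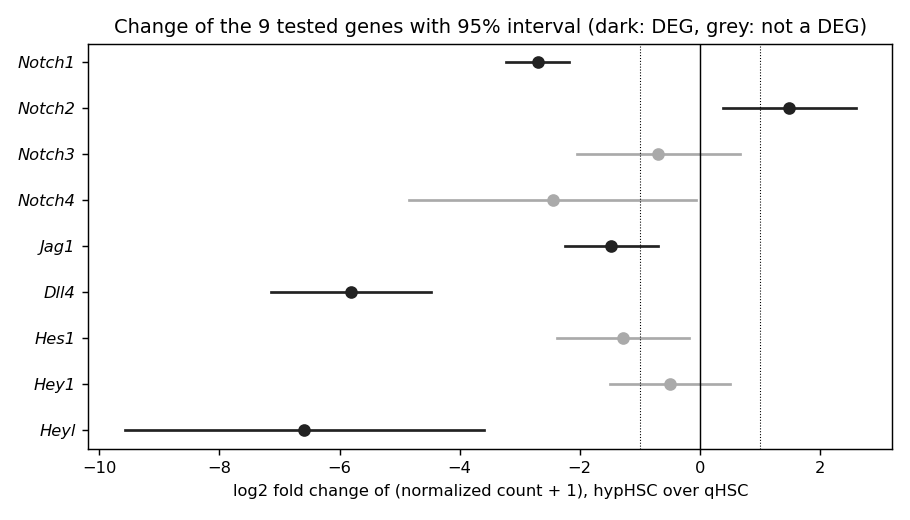
Log2 fold change of normalized count + 1, hypHSCs over qHSCs, of the 9 Notch genes tested, with the 95% interval of limma. Dotted lines mark a change of 1 in either direction, dark points are DEGs and grey points are not, and *Notch2* at 1.49 is the dark point to the right of 0.

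Levels of different genes were compared per exon length, as FPKM computed from recovered reads and the exon length in GENCODE. The deposited entries of *Hes1* and *Hey1* span 2456 and 3681 bases, less than their GENCODE exon lengths of 3376 and 4797 bases. Their FPKM can therefore come out too low. In qHSCs *Notch1* made up 83.0% ± 4.33 (SD, n = 5) of the summed FPKM of the 4 receptors, with a range of 77.3% to 87.7%. In hypHSCs its share was 47.0% ± 4.63, with a range of 40.9% to 51.6%, so that the groups did not overlap. The share of *Notch2* was 2.55% ± 1.02 in qHSCs and 27.7% ± 11.5 in hypHSCs, where it ran from 9.32% in hypHSC 1 to 39.7% in hypHSC 5. *Notch3* took 8.20% and 18.7%, and *Notch4*, whose counts are uncertain, 6.29% and 6.61%. Shares within a library do not depend on the scaling between libraries, and they show unequal change rather than which receptor changed. With coding length in place of exon length *Notch1* held 86.6% in qHSCs and 53.6% in hypHSCs.

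**Figure D3:**
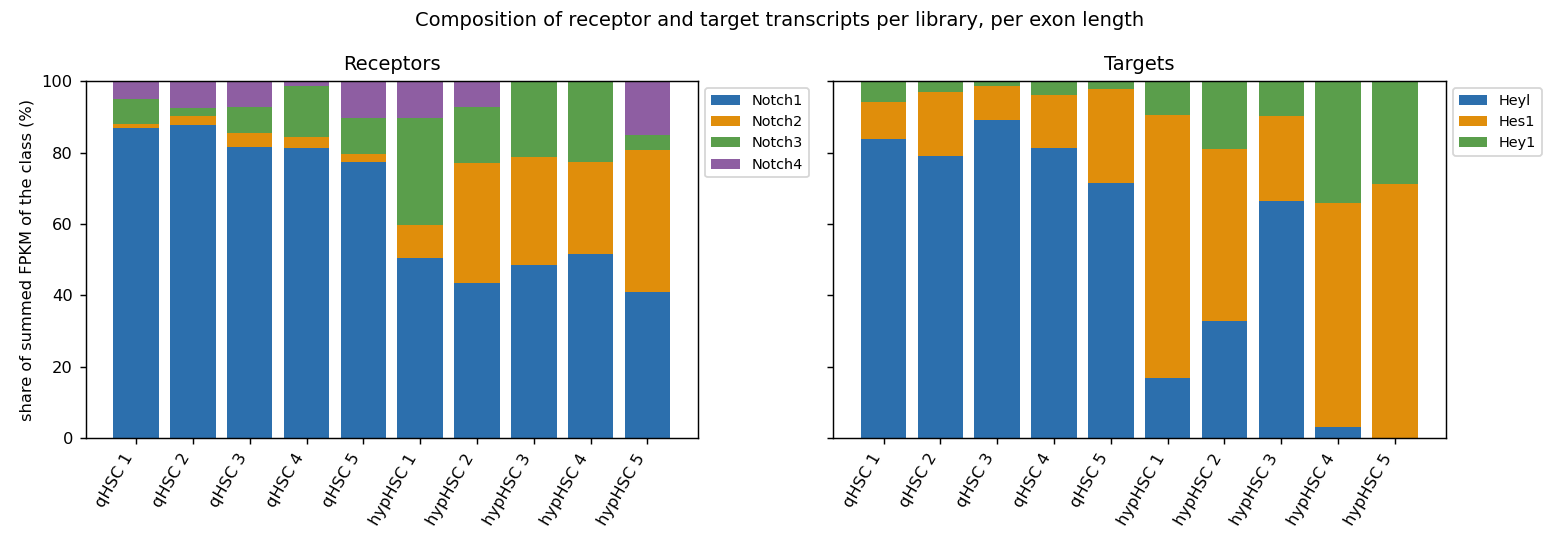
Share (%) of each receptor in the summed FPKM of the 4 receptors (left) and of each target in that of the 3 targets (right), 1 stacked bar per library. *Notch1* fills 77.3% to 87.7% of the receptor bars of qHSCs and 40.9% to 51.6% of those of hypHSCs, and *Heyl* fills most of each target bar in qHSCs and none of it in hypHSC 5.

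The ligands *Jag1* and *Dll4* fell in hypHSCs. *Jag1* (chr2:136923371-136958443), the Jagged ligand mutated in most families with Alagille syndrome, held 115, 189, 123, 52.45 and 78.65 normalized counts in hypHSC 1 to 5 and 338, 327, 232, 267 and 276 in qHSC 1 to 5. The highest hypHSC library, hypHSC 2, stayed below the lowest qHSC library. Means were 112 ± 51.9 and 288 ± 43.9 (SD, n = 5 each), with a log2 fold change of -1.47 ± 0.35 (SE, 95% interval -2.24 to -0.70, limma adjusted p = 0.00496) and an exact permutation p of 0.00794. *Jag1* stayed a lower DEG under all 24 alternatives.

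*Dll4* (chr2:119156264-119166443), the Delta ligand best known from sprouting vessels, was almost absent from the hypHSC libraries. hypHSC 1 held 2.7 normalized counts and the other 4 held 0, a total of 2 reads, while qHSC 1 to 5 held 103, 116, 53.5, 41.1 and 71.2, a total of 461 reads. Every hypHSC library was under the floor of 3 reads and every qHSC library was well above it. After division by the scaling factors the reads were 172-fold lower in hypHSCs, with a 95% exact counting interval of 47.4 to 1427. This ratio rests on 2 amplified reads in hypHSC 1, and its interval leaves out the spread between libraries. The fitted log2 fold change of -5.80 ± 0.61 (SE) depends on the added count, and the call as a DEG is no support for the fall, because the filter admitted *Dll4* through qHSCs alone. Of its exon bases 15.6% overlap *Gm14207* on the other strand, a noncoding gene with 7.75 ± 12.7 normalized counts in hypHSCs and 30.8 ± 11.3 in qHSCs that was also a lower DEG. *Jag2* (chr12:112871442-112893116), the other Jagged ligand, was near the floor everywhere, with 8.09, 0, 0.83, 14.7 and 0 normalized counts in hypHSC 1 to 5 and 0.91 in qHSC 1 alone. Its 21 reads against 1 came mostly from hypHSC 4 and hypHSC 1, and the exact permutation p was 0.286.

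*Heyl* (chr4:123127349-123143663), a HEY family repressor that Notch switches on in mural cells, fell in hypHSCs. It held 248, 182, 388, 18.9 and 0 normalized counts in hypHSC 1 to 5 and 5068, 5091, 5851, 4079 and 4682 in qHSC 1 to 5. qHSCs were alike, whereas hypHSCs ran from no read in hypHSC 5 to 467 reads in hypHSC 3, and the groups were far apart. The mean of 167 ± 162 in hypHSCs was 29.6-fold lower than that of 4954 ± 647 in qHSCs (SD, n = 5 each). The log2 fold change was -6.59 ± 1.36 (SE, 95% interval -9.58 to -3.60, limma adjusted p = 0.00212), with an exact permutation p of 0.00794. Without hypHSC 5 it was -5.17, and it was -4.89 in DESeq2 and -4.84 in edgeR. Over all alternatives *Heyl* stayed a lower DEG. hypHSC 5 and 4 also had the lowest sums of quiescent HSC markers (8105 and 12324) and of smooth muscle markers (1019 and 1099). The other libraries did not keep this order. hypHSC 3, highest in *Heyl*, had lower sums (15672 and 1329) than hypHSC 1 (21944 and 3357) and hypHSC 2 (17565 and 2231). A link between *Heyl* and these markers was not tested. None of the exon bases of *Heyl* lie in another gene.

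*Hes1* (chr16:29884158-29886613), the HES repressor most widely used as a readout of Notch, did not pass the test. hypHSC 1 to 5 held 694, 169.8, 88.15, 248 and 277 normalized counts, and qHSC 1 to 5 held 396, 737, 404, 471 and 1098. The other 4 hypHSC libraries lay below all qHSC libraries, while hypHSC 1, the library with the most mitochondrial reads, lay inside their range. The log2 fold change was -1.28 ± 0.50 (SE, 95% interval -2.38 to -0.17, limma adjusted p = 0.0551), with an exact permutation p of 0.0635. *Hes1* became a lower DEG without hypHSC 1 (-1.67, adjusted p = 0.00925), with hypHSCs of 12 weeks only (-1.64, adjusted p = 0.021) and with libraries scaled to the same total (-1.63, adjusted p = 0.0139) or on *Hprt*, *Pgk1* and *Actb* (-2.21, adjusted p = 0.00243), in limma fits.

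*Hey1* (chr3:8728420-8732100), the HEY repressor known from vessels and heart, ranged from 51.6 to 191 normalized counts in hypHSCs and from 80.3 to 324 in qHSCs. The groups overlapped, and the log2 fold change of -0.50 ± 0.46 (SE, 95% interval -1.49 to 0.50) did not pass the test (limma adjusted p = 0.393). By exon length, the makeup of the 3 targets differed between the groups. *Heyl* held 80.9% ± 6.44 (SD, n = 5) of their summed FPKM in qHSCs, from 71.5% to 89.0%. In hypHSCs its share was 23.9% ± 27.2, from 0% to 66.6%, while *Hes1* held 55.9% and *Hey1* 20.2%. The size of these shares is uncertain, because the exon lengths of *Hes1* and *Hey1* exceed their deposited spans.

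The order of levels per exon length also differed between the groups. In it the places of *Hes1* and *Hey1* are uncertain, because their exon lengths exceed their deposited spans. In qHSCs the mean FPKM was 28.7 for *Heyl*, 5.52 for *Hes1*, 2.47 for *Notch1* and 1.47 for *Jag1*, and the libraries of each of these neighbors did not overlap. Below them followed *Hey1* (1.13), *Dll4* (0.594), *Notch3* (0.228), *Notch4* (0.184) and *Notch2* (0.0749), whose neighbors in this order overlapped, and *Jag2* was lowest, apart from *Notch2* in all libraries. In hypHSCs the order was *Hes1* (2.06), *Heyl* (0.820), *Hey1* (0.600), *Jag1* (0.459), *Notch1* (0.303), *Notch2* (0.173), *Notch3* (0.126), *Notch4* (0.0427), *Jag2* (0.0154) and *Dll4* (0.00332). There each neighbor overlapped the next, although *Notch1* was above *Notch2* in each of the 5 libraries. By coding length the order changed. *Hey1* (6.04) then followed *Hes1* in qHSCs, above *Notch1* (4.63), whose libraries it overlapped, and *Jag1* (2.40), and in hypHSCs the libraries of *Hey1* (3.21) and *Jag1* (0.748) did not overlap.

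Start-site sequences are shown for genes that fell (*Notch1*, *Jag1*, *Dll4*) and for the higher DEG *Notch2*, whose call was near the threshold. They are the 200 bases before the annotated start, from RefSeq on GRCm38.p6, and 7 of the 10 genes had such an entry, without *Hes1*, *Hey1* and *Heyl*. The stretches are chr2:26503823-26504022 (minus strand) for *Notch1*, chr2:137116521-137116720 (minus strand) for *Jag1*, chr2:119325584-119325783 (plus strand) for *Dll4* and chr3:98013338-98013537 (plus strand) for *Notch2*, each read 5′ to 3′ along the gene. Capitals mark GGGCGG or its reverse complement CCGCCC, the GC box.
Notch1: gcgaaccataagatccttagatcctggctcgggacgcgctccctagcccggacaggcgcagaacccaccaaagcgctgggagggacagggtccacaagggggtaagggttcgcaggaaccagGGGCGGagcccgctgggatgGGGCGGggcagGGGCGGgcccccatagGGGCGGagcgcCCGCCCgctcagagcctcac
Jag1: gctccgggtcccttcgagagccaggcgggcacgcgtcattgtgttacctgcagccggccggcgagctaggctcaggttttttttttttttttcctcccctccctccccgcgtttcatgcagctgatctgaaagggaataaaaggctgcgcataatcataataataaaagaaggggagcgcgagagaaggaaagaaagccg
Dll4: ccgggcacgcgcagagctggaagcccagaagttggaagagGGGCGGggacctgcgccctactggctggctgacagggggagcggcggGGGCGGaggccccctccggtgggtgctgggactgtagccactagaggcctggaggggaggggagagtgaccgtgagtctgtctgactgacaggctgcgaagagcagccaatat
Notch2: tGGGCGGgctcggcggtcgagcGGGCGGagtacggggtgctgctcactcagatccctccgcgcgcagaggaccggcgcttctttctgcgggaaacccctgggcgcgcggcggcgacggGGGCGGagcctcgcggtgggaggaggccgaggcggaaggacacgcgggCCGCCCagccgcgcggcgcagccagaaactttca

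Motifs were searched on both strands in windows of 250 bases before to 50 bases after the start, and were chosen after the sequences had been seen. The GC box was found in 5 of the 7 windows, with 5 matches for *Notch1*, 7 for *Notch2*, 4 for *Notch3*, 5 for *Jag2* and 2 for *Dll4*, against 35.7% of all 32851 windows. *Jag1* and *Notch4* had none, and a link of GC boxes to the direction of change was not tested. TGGGAA, the core bound by RBPJ, was in 0 of the 7 windows against 25.6% of all windows, and the E-box CACGTG in 0 against 7.15%. GC content was 68.3% for *Notch1*, 55.7% for *Jag1*, 63.7% for *Dll4* and 73% for *Notch2*, against a median of 52.7% over all windows. A match describes letters only, and no match concerns only these windows.

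Of 61 other genes of the pathway, listed by role from general knowledge, 51 were tested. As DEGs there were 10 higher and 10 lower, 39.2% of those tested beside 39.5% of all genes, so that the list as a whole did not stand out. Its median log2 fold change was -0.35. The split became 6 higher and 15 lower with libraries of the same total and 2 higher and 31 lower when scaled on *Hprt*, *Pgk1* and *Actb*. Over the 24 alternatives 6 of the 10 lower DEGs and 1 of the 10 higher ones kept their call in all, and none changed sign. Among these 6 is *Hey2*, which passed the filter only through qHSCs and whose call had to hold. Leaving out 1 library ended the calls of *Furin* (hypHSC 2, hypHSC 5 or qHSC 1), *Fbxw7* (hypHSC 4, hypHSC 5 or qHSC 3), *Spen* (hypHSC 2 or qHSC 5), *Psenen* and *Numb* (hypHSC 5) and *Tle3* (hypHSC 3, 4 or 5), with changes that remained 0.86 to 0.99 in size. It also ended that of *Tle2* (hypHSC 3 or any qHSC library), with limma adjusted p-values of 0.0602 to 0.0819.

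Genes of receptor cleavage gave 5 higher DEGs and 1 lower of 9 tested, beside 17.8% higher and 21.7% lower among all genes, and this split became 4 higher and 1 lower with libraries of the same total and 1 higher (*Aph1c*) and 4 lower when scaled on *Hprt*, *Pgk1* and *Actb*. *Adam10* and *Adam17*, the proteases of the first cut, had log2 fold changes of 1.60 ± 0.31 and 1.42 ± 0.22 (SE, limma adjusted p = 0.00136 and 0.000274). *Aph1c*, a subunit of gamma-secretase, rose from 463 ± 127 to 5986 ± 607 normalized counts (SD, n = 5 each), a log2 fold change of 3.72 ± 0.19 (SE, limma adjusted p = 1.56e-07). Its close copy *Aph1b* was higher by 1.41 ± 0.17 (SE). How reads that fit both copies were counted is not stated, and it can affect both values. *Psenen*, the smallest subunit, was higher by 1.12 ± 0.30 (SE). *Ncstn*, which encodes the substrate-binding subunit nicastrin, was instead lower, at 3386 ± 1837 against 9444 ± 1793 normalized counts (log2 fold change -1.87 ± 0.60, SE, limma adjusted p = 0.0237), a call lost without qHSC 2 (limma adjusted p = 0.0517). *Psen2*, a catalytic subunit, and *Aph1a* were not DEGs.

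**Figure D4:**
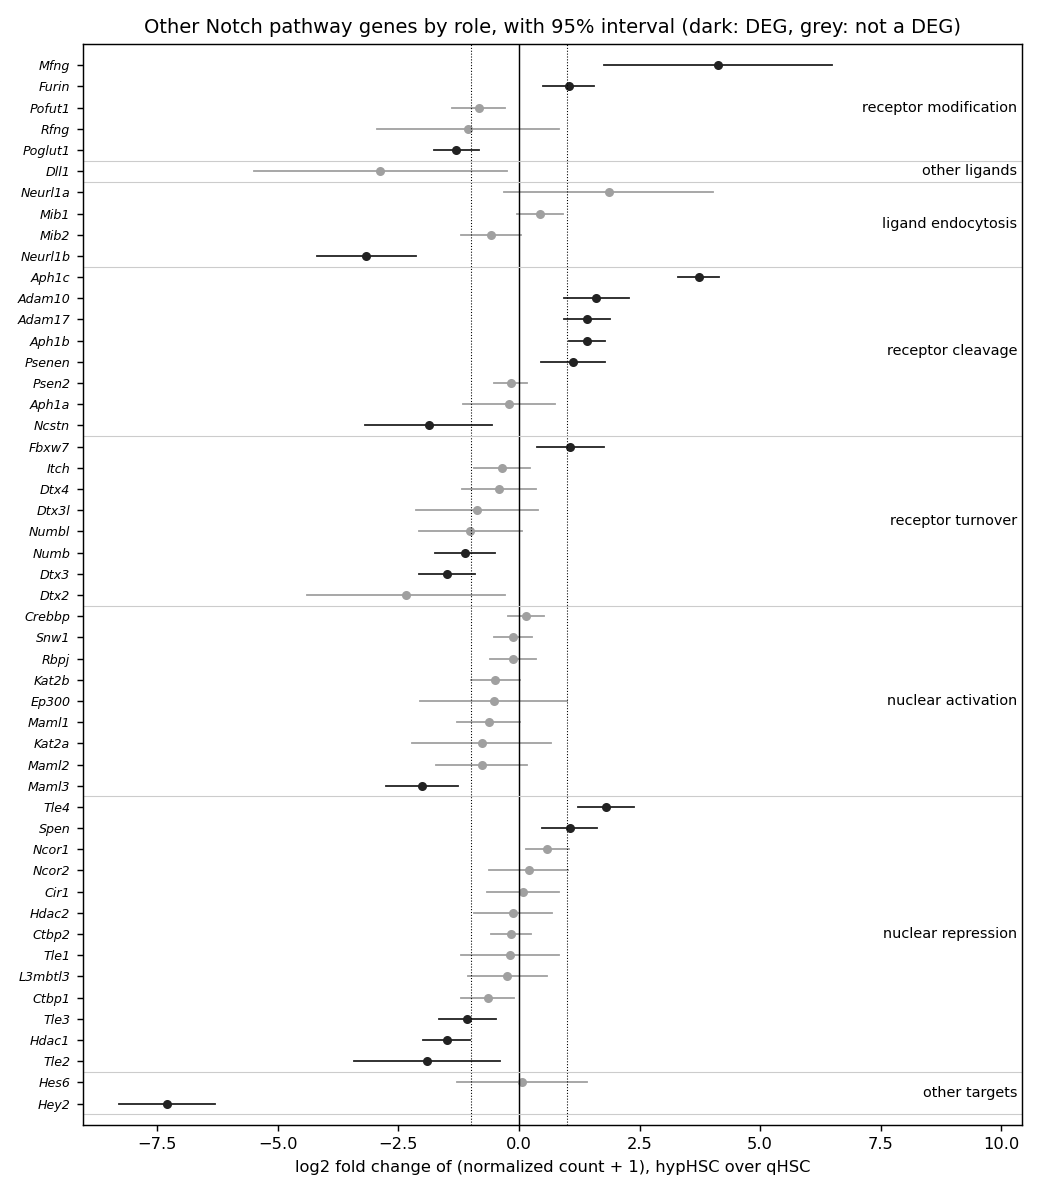
Log2 fold change of normalized count + 1, hypHSCs over qHSCs, with the 95% interval of limma, for 50 of the 51 other pathway genes tested, grouped by role. Dark points are DEGs, 10 on each side of 0, with *Mfng* (4.13) and *Aph1c* (3.72) farthest right and *Hey2* (-7.30) farthest left.

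Genes that modify the receptors or act on the ligands changed in both directions. The sugar transferase *Mfng*, which alters which ligands a receptor answers to, was higher by 4.13 ± 1.08 (SE, limma adjusted p = 0.0084), although its groups overlapped, and *Furin*, the protease that matures the receptor, by 1.03 ± 0.24. *Poglut1*, which adds glucose to the receptor, was lower, at 1454 ± 325 against 3576 ± 798 normalized counts (-1.30 ± 0.21, SE, limma adjusted p = 0.000414). *Neurl1b*, a ubiquitin ligase that drives ligand endocytosis, was the DEG among 4 genes of that role, lower by a log2 fold change of -3.16 ± 0.47 (SE). That is 25% of the role, beside 39.5% of all genes tested. *Mib1*, the main ligase of this step, was not a DEG (0.43 ± 0.22). Of the other ligands only *Dll1* reached the filter, and its log2 fold change of -2.88 ± 1.20 (SE) did not pass the test (limma adjusted p = 0.0671). For receptor turnover, *Fbxw7*, which marks the intracellular domain for degradation, was higher by 1.06 ± 0.32, and the inhibitor *Numb* (-1.11 ± 0.28) and the ligase *Dtx3* (-1.49 ± 0.27) were lower, of 8 tested. These 3 DEGs are 37.5% of the 8, near the 39.5% of all genes tested.

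In the nucleus *Rbpj*, the DNA-binding partner of every Notch receptor, held 1433 ± 441 normalized counts against 1504 ± 121 in qHSCs (SD, n = 5 each) and did not pass the test (log2 fold change -0.12 ± 0.21, SE, limma adjusted p = 0.665). Of 9 coactivators tested, that partner included, *Maml3*, of the Mastermind family, was the DEG, lower by -2.01 ± 0.34, while *Maml1* and *Maml2* were not DEGs. That is 11.1% of the 9, beside 39.5% of all genes tested. Corepressor genes gave 2 higher DEGs, *Spen* (1.05 ± 0.26) and *Tle4* (1.81 ± 0.27), and 3 lower ones, *Hdac1* (-1.50 ± 0.22), *Tle2* (-1.91 ± 0.69) and *Tle3* (-1.07 ± 0.27), of 13 tested, which is 38.5% beside 39.5% of all genes. Members of the Groucho family *Tle2*, *Tle3* and *Tle4* thus moved in opposite directions, and the higher call of *Tle4* was lost on the scaling to *Hprt*, *Pgk1* and *Actb*, where it kept its sign (0.87). The call of *Spen* was lost on that scaling (0.12) and with libraries of the same total (0.70). *Hey2*, another HEY repressor, had no read in any hypHSC library and 160 ± 32.9 normalized counts in qHSCs (SD, n = 5), at least 46.2-fold lower when hypHSCs are set to 3 reads per library. It passed the filter only through qHSCs and so had to differ. *Hes6*, the other gene tested among those listed as further targets, was not a DEG (0.06 ± 0.61, SE). That list came from general knowledge, and whether *Hes6* answers to Notch in these cells was not tested.

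For each receptor, the genes that varied most like it within the groups were sought among 10792 genes whose mean reached 100 normalized counts, after each group mean had been removed. The likeness is Pearson's r over the 10 libraries, given as a description. For *Notch1* these were *Wbp1l* (r = 0.972), *Fndc3b* (r = 0.960) and *Gfm1* (r = 0.9575), and for *Notch2* *Alg6* (r = 0.913), *Slc39a10* (r = 0.909) and *Samd9l* (r = 0.897). *Notch3* was most like *Sdr42e1* (r = 0.955), *Rfxank* (r = 0.941) and *Srrd* (r = 0.933), and the *Notch4* entry most like *C1qtnf2* (r = 0.951), *Bmp2* (r = 0.943) and *Astn2* (r = 0.937). The libraries share preparation, depth and composition within a group, which such values also carry. They are the highest of 10792 values over only 10 libraries, so that a high r can arise from the search itself.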

How the data were processed

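RNA from 5 hypHSC and 5 qHSC preparations was sequenced from amplified cDNA without strand, as paired reads of 59 bases. The authors deposited 1 signal per gene and library, the normalized count, for which they mapped the reads with STAR to mm39, counted them with featureCounts (Subread 1.5.0) on FAST DB annotations and divided them by DESeq2 size factors. Multiplying each column by its factor gave whole reads (within 0.05) for 100% of the values, which served for FPKM, depth, edgeR and DESeq2. Of 62322 entries, the 37089 without a symbol entered only an alternative.

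log2(normalized count + 1) was compared with limma 3.58.1 (lmFit, eBayes with trend) in R 4.3.3, with group as the only term and Benjamini-Hochberg adjustment over the 14630 genes tested. Exact two-sided permutation tests used log2 values of single genes. Alternatives were DESeq2 1.42.0, edgeR 4.0.16 (quasi-likelihood), the added count (0.5 or 5), the filter, the scaling, the replicate number as a block, subsets by diet time or age, and each library left out in turn on the same genes. The limma comparison was tested on simulated reads with the same dispersion for all genes, so that genes of larger spread were not covered. The Notch genes and the lists were chosen with earlier results of these data known. Named genes were all Notch genes, listed pathway and marker genes, and the 3 genes most like each receptor. *Mfng*, *Dll1*, *Mib1*, *Hes6*, *Rbpj* and the other genes named as no DEG were named for their roles after the values had been seen, and 1 listed pathway gene is counted but not reported here by name. Overlaps and lengths came from GENCODE on GRCm39, and start-site sequences from RefSeq on GRCm38.p6.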

Additional observations from a re-analysis of the deposited data

Results flagged for a closer look

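Of 20 groups of 5 libraries examined (10 genes in each of the groups hypHSC and qHSC), 2 held a library far from the other 4 on the log2 scale. The rule flags about 1 in 20 groups of normally spread values. A single value above 0 among zeros is always flagged, as in both cases here, so that this rate does not apply to them. *Dll4* was at 2.7 normalized counts in hypHSC 1, where the other hypHSC libraries were at 0. *Jag2* was at 0.91 in qHSC 1, where the other qHSC libraries were at 0. Both values are at or under the floor of 3 reads, and their cause was not tested.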

How the results depend on the processing

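The call of *Notch1*, *Jag1* and *Heyl* as lower DEGs held under all 24 alternatives. *Dll4* was also called in the 23 that tested it, which is no sign of stability because the filter admitted it through qHSCs alone. No Notch gene changed sign. The 5 DEGs among the Notch genes became 8 (0 higher, 8 lower) when the libraries were scaled on *Hprt*, *Pgk1* and *Actb*, where *Notch3* (-1.62) and *Hey1* (-1.43) were also lower DEGs, and the 20 pathway DEGs became 33. That scaling moves the whole distribution. Including entries without a symbol raised the DEGs of all genes from 5779 to 9291 because more entries were tested. Leaving out 1 library in turn gave 4 to 6 Notch DEGs (6 without hypHSC 1 and 6 without hypHSC 5), 17 to 21 pathway DEGs and 5241 to 5914 in all. DESeq2 and edgeR each called 5 Notch genes, 1 higher and 4 lower. With hypHSCs of 12 weeks only there were 7, and with qHSCs of 36 weeks of age only there were 4, without *Notch2* (1.77, limma adjusted p = 0.0531).

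Replicate numbers do not pair the libraries: same-numbered deviations correlated at 0.00816 to 0.129. With the replicate block 6 Notch genes, 20 pathway genes and 5786 genes in all were DEGs, and *Notch4* joined them (-2.45, limma adjusted p = 0.0337). Scaling to the same total, for all genes, gave 2022 higher and 4224 lower DEGs, and scaling on *Hprt*, *Pgk1* and *Actb* 1472 and 6989, against 2602 and 3177. With 5 preparations a group, the wide intervals of *Notch3*, *Notch4*, *Hes1* and *Hey1* limit what can be said of them. Intervals of the DEGs *Notch2* (0.38 to 2.60), *Dll4* (-7.14 to -4.47) and *Heyl* (-9.58 to -3.60) were also wide, so that the size of their changes is uncertain.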

Other observations

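Pathway genes that missed the filter on low values also carried reads in some libraries, given here without a test. *Lfng*, a sugar transferase of the same family as *Mfng*, held 43.3 ± 35.8 normalized counts in hypHSCs (SD, n = 5), from 1.51 to 91.1, and 2.64 ± 3.22 in qHSCs, with totals of 216 and 16 reads. *Dtx1*, a ligase of receptor turnover, had 68 reads in hypHSCs and 0 in qHSCs, and the ligand-like gene *Dner* had 42 and 0. *Nrarp*, a feedback inhibitor that Notch switches on, reached 72.6 normalized counts in 1 hypHSC library and was at 0 in the other 9 libraries. *Hes5* and *Dll3* had no read in any library.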
